A study of Caenorhabditis elegans with 8 samples.

Results

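The *twk*, *lgc* and *acr* genes of *C. elegans* encode channels that set or change the voltage across the membrane of neurons and muscles. Their transcripts were followed in embryos depleted of ZTF-11, the worm's Myt1 family zinc finger transcription factor. Every counted transcript was taken whose symbol in a RefSeq gene table starts with *twk-*, *lgc-* or *acr-* and a number. The rule reads symbols only, but the families were picked with earlier results of these data known. This gave 161 of the 50606 transcripts in the files, from 115 genes: 65 *twk* transcripts of 41 genes, 66 *lgc* transcripts of 56 genes and 30 *acr* transcripts of 18 genes. Another 6 genes in the RefSeq table (*acr-5*, *acr-8*, *acr-21*, *twk-18*, *twk-22* and *twk-24*) were paired with no counted transcript by that table.

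Gene expression was compared by RNA-seq between embryos of mothers fed *ztf-11* RNAi bacteria (*ztf-11* KD, n = 4 cultures) and embryos of mothers fed the empty vector L4440 (control, n = 4 cultures). Both groups were strain TV23837, which carries *ztf-11(wy1100)*, a GFP-tagged and loxP-flanked allele, together with *eri-1(mg366)*, *oxIs322* and *ynIs49*. The *eri-1* mutation makes neurons more sensitive to RNAi, so control embryos too were tagged, RNAi-sensitive animals rather than wild type. Mothers were fed for 64 h at 20 °C, and their eggs were kept in M9 for 3 h before RNA was taken from whole embryos of mixed tissues. The comparison asks how transcript levels in the embryo change when ZTF-11, a factor of neuronal precursors, is depleted. Libraries held 39343105 to 44933700 counts in *ztf-11* KD, against 39494873 to 45609675 in controls.

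*twk* genes encode potassium channel subunits of the tandem pore domain (TWIK) kind. These channels pass a background potassium current that holds cells near their resting potential, and in worms they are found in neurons and in body wall muscle. *acr* genes encode subunits of nicotinic acetylcholine receptors, pentameric cation channels that act at neuromuscular junctions and between neurons. Most *lgc* genes encode other members of the same Cys-loop superfamily. Among them are receptors gated by GABA, acetylcholine or a biogenic amine, some of which pass anions and hyperpolarize the cell.

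In *ztf-11* KD embryos *ztf-11* itself was measured at 9.42, 10.96, 14.7 and 9.98 CPM (counts relative to the TMM-scaled library total), against 36.6, 68.4, 31.2 and 40.9 CPM in control embryos. All 4 KD libraries lay below all 4 controls, at a log2 fold change of -1.97 (SE 0.27). The exact two-sided permutation p was 0.029, the smallest that 4 against 4 libraries allow, and edgeR's adjusted p over all transcripts was 0.262. Where a log2 fold change is given it is *ztf-11* KD over control. In whole embryos, fewer cells of a type and less RNA per cell cannot be told apart, for *ztf-11* and for every channel below.

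The control library of replicate 2 stood apart from the rest. Markers of early embryos that are laid down by the mother (*spn-4*, *mex-5*, *glp-1* and others, 11 of 12 listed genes matched and 10 tested) summed to 444 to 713 CPM in the *ztf-11* KD libraries, to 1530 CPM in control replicate 2 and to 576 to 698 CPM in the other controls. Some markers of each of neurons, body wall muscle, epidermis and intestine were detected. At 0 counts in all 8 libraries were 1 neuronal marker (*rgef-1*), 1 muscle marker (*lev-11*), 2 epidermal markers (*elt-1* and *elt-3*) and 1 intestinal marker (*cpr-6*). Means per library were 2 counts for *rab-3*, 3.6 for *unc-119*, 5.1 for *unc-22*, 1.25 for *lin-26* and 0.375 for *mex-3*. Each gene was read by its most counted transcript, so these values do not show that a gene was silent. Because control replicate 2 stood apart, counts, family medians and the named channels are also given without it.

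A first result concerns which channels could be measured at all. A transcript was tested if enough libraries reached about 10 counts, and 85 of the 161 channel transcripts (82 genes) did: 32 *twk*, 40 *lgc* and 13 *acr* transcripts. Of the other 76, 52 had 0 counts in all 8 libraries. The division followed the annotation. Where a gene had a single counted transcript, 72 of 87 channel transcripts were tested and 3 were at 0 counts. Where a gene had several, 13 of 74 were tested and 49 were at 0 counts. Over all NM transcripts of the files, 70.1% of those from single-transcript genes and 18.7% of those from genes with several were tested, and 68.6% of those from genes with several were at 0 counts. The *acr* genes were the most uneven, with 12 of 13 single transcripts tested and 1 of 17 of the rest. Of those 17, 9 were of *acr-17* alone, all at 0 counts. The channel transcripts, unlike the NM share, include 6 noncoding (NR) transcripts, all at 0 counts. Zero counts for a gene with several annotated transcripts therefore do not show that the gene was silent. The rule by which reads shared by transcripts were counted is not given in the sources used here, and its part in these zeros was not tested.

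**Figure D1:**
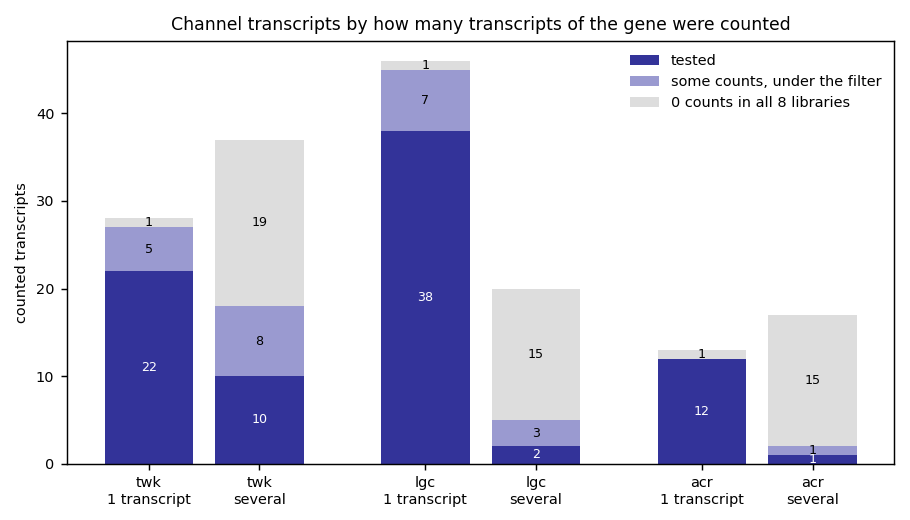
Number of counted channel transcripts (vertical axis) in each family, split by whether the gene had 1 counted transcript or several. Dark bars were tested, pale bars had some counts but missed the filter, and grey bars had 0 counts in all 8 libraries; grey fills 15 of 20 *lgc* and 15 of 17 *acr* transcripts of genes with several.

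Of the 76 untested transcripts, 24 had some counts. The most counted was *acr-24* (NM_001268937), a nicotinic subunit, with a mean of 13.6 counts per library over all 8. Its counts were 9, 6, 17 and 35 in *ztf-11* KD and 7, 8, 24 and 3 in control libraries. *lgc-7* (NM_070376) had 4, 23, 8 and 2 counts in *ztf-11* KD and 9, 32, 22 and 6 in control libraries. Both genes overlapped between the groups. After *lgc-7*, *lgc-13* (mean 5 counts) was next in its family, while no other untested *acr* transcript had any count. The most counted untested *twk* transcripts were of *twk-17* (7.38 for NM_001029291) and *twk-29* (6 for NM_001026296).

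Among the 85 channel transcripts tested, levels per kilobase of the gene's longest annotated transcript spanned a wide range. The ligand-gated *lgc-34* was highest, at a mean of 92.1 CPM per kb in *ztf-11* KD, against 66.4 in controls. *lgc-21* followed, at 60.5 CPM per kb in *ztf-11* KD, against 26.1 in controls. All other channels lay lower. *lgc-28* had 20.7 CPM per kb in *ztf-11* KD, against 20.6 in controls, and *lgc-39*, a receptor subunit, had 20.6 in *ztf-11* KD, against 20.1 in controls. *lgc-55*, the tyramine-gated chloride channel, had 17.2 CPM per kb in *ztf-11* KD, against 14.4 in controls. The highest *twk* transcript of these 85 on this scale was *twk-2*, at 10.99 CPM per kb in *ztf-11* KD, against 7.79 in controls. *twk-18*, paired only by the study's own gene list, is not among them and is given apart below. The highest *acr* transcripts in *ztf-11* KD were *acr-15*, *acr-25*, *acr-16* and *acr-11*, at 5.04 to 6.46 CPM per kb. In control embryos these 4 had 2.31 to 5.40, and *acr-9* (2.66) lay above *acr-11* (2.31). The order of *acr* transcripts was not stable between groups: *acr-15* was above its chromosomal neighbour *acr-16* in *ztf-11* KD (6.46 against 5.21 CPM per kb) and below it in control embryos (5.08 against 5.40).

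No *twk*, *lgc* or *acr* transcript passed an adjusted p of 0.1 in edgeR's quasi-likelihood test, and nor did any of the 14328 transcripts tested (0%). The smallest adjusted p among channels was 0.359, for *lgc-21*. At an unadjusted p under 0.05, 14 of 85 channel transcripts were higher in *ztf-11* KD embryos (4 *twk*, 7 *lgc*, 3 *acr*), where the share over all transcripts was 8.8%, and 0 were lower, where that share was 3.99%. DESeq2 on the same counts called 2 channels at an adjusted p under 0.1, *lgc-21* (0.0246) and *acr-11* (0.0691), both higher, where 2.45% of its 16066 transcripts were called higher. The 4 KD libraries lay above all 4 controls for 8 channel transcripts, against 3.61% of all transcripts, and below for 1, *twk-47*, against 2.46%.

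Most channels lay on the same side. The log2 fold change was above 0 for 74 of 85 channel transcripts (87.1%), against 49.2% of all transcripts tested. By family these were 27 of 32 *twk*, 36 of 40 *lgc* and 11 of 13 *acr* transcripts. The median log2 fold change was 0.47 for *twk*, 0.36 for *lgc* and 0.35 for *acr* transcripts, against -0.01 over all transcripts, and single values ran from -0.93 to 2.12. Some members passed the filter more through one group than the other: 15 tested channels reached the filter's level in more KD than control libraries, and 2 in more control than KD libraries. With only the 64 channels that had at least 10 counts in every library, 54 were above 0, and the medians were 0.29 for *twk*, 0.37 for *lgc* and 0.35 for *acr*. Of these 64, 11 were higher at an unadjusted edgeR p under 0.05, where 9.18% of all transcripts with such counts were. Exons of another coding gene overlapped 27 of the 85, and the median of the others was 0.36.

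**Figure D2:**
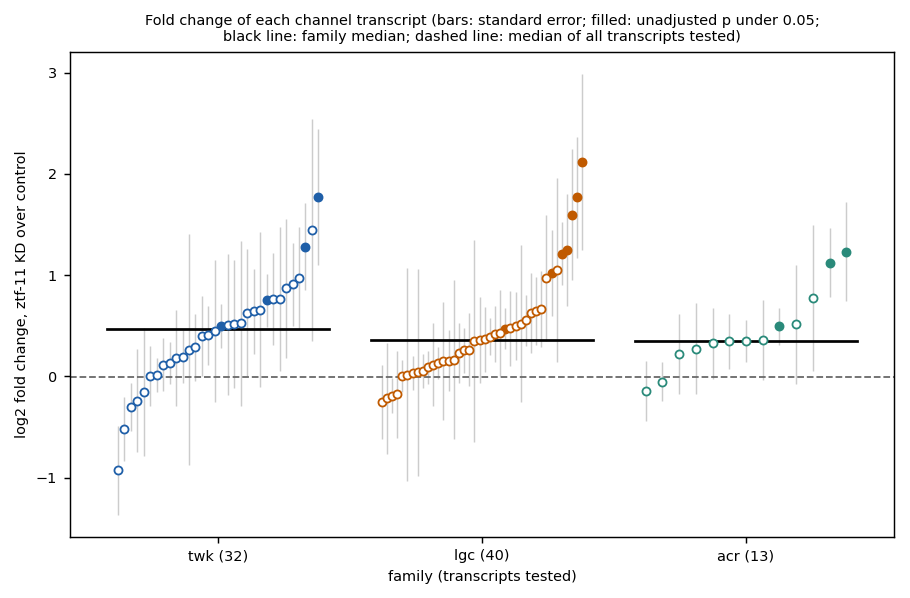
Log2 fold change, *ztf-11* KD over control (vertical axis), of each tested channel transcript, ordered within its family, with its standard error. Filled points had an unadjusted edgeR p under 0.05, black lines mark the family medians (0.47, 0.36 and 0.35) and the dashed line the median of all transcripts (-0.01); most points of each family lie above the dashed line.

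Control replicate 2 had the lowest CPM of the 8 libraries in 51 of 85 channel transcripts (60.0%), against 31.4% of all transcripts. It was lowest in 19 of 32 *twk*, 24 of 40 *lgc* and 8 of 13 *acr* transcripts. *ztf-11* KD replicate 3 was lowest in 11 and control replicate 4 in 10. Without control replicate 2, 73.3% of 86 channel transcripts tested had a log2 fold change above 0, against 49.1% of all transcripts. The medians were then 0.33 for *twk*, 0.19 for *lgc* and 0.26 for *acr*. Of the 14 channels with an unadjusted p under 0.05, 8 kept it (*twk-33*, *twk-12*, *twk-7*, *lgc-54*, *lgc-21*, *acr-10*, *acr-11* and *acr-25*) and 6 did not. *twk-48* (0.61) and *lgc-20* (-0.32) were under 0.05 only in that fit. Over the fits with 1 library left out, 4.41% to 13.4% of all transcripts were higher at that p. The fit without control replicate 2 is within that range, but its own share is not given. Its channel counts are therefore not read as above the share over all transcripts.

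**Figure D3:**
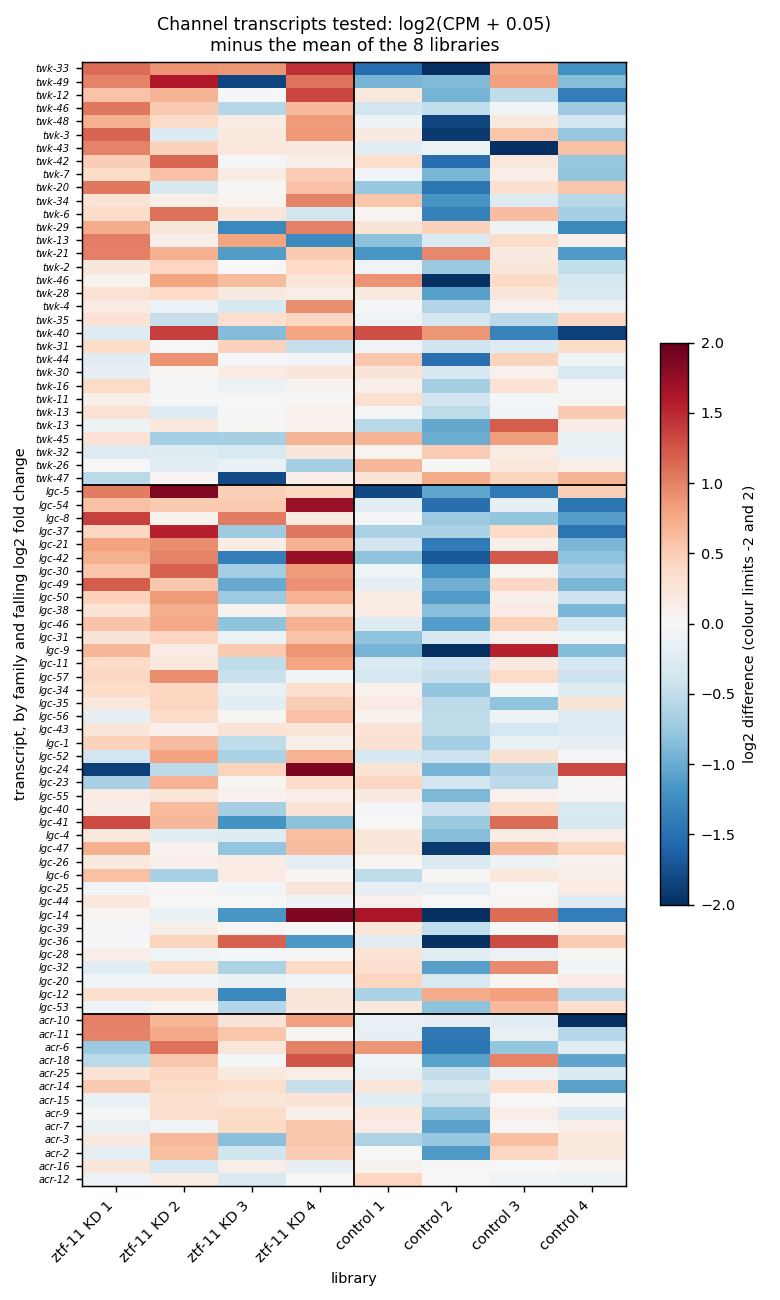
Level of each tested channel transcript (rows, by family and falling log2 fold change) in each library (columns, *ztf-11* KD left of control), as log2(CPM + 0.05) minus its mean over the 8 libraries. Red is above and blue below that mean; the column of control replicate 2 is blue in most rows, and it was the lowest library in 51 of 85.

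The summed levels show the same libraries. *twk* transcripts summed to 184, 188, 160.5 and 193 CPM in *ztf-11* KD libraries, against 167, 105, 170 and 133 CPM in control libraries. *lgc* transcripts summed to 566, 601, 435 and 571 CPM in *ztf-11* KD, against 477, 291, 467 and 401 CPM in control. *acr* transcripts summed to 61.4, 66.0, 60.2 and 60.8 CPM in *ztf-11* KD, against 52.5, 36.8, 55.7 and 46.2 CPM in control. Only for *acr* did the groups not overlap: the lowest KD library was above the highest control.

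Markers of the tissues that use these channels moved among the libraries too. Body wall muscle markers such as *unc-54* and *myo-3* (9 of 10 matched, 7 tested) summed to 4356 to 8651 CPM in *ztf-11* KD and 2575 to 4924 CPM in control libraries, and all 7 were higher at an unadjusted edgeR p under 0.05, where the share over all transcripts was 8.8%. Neuronal markers (11 of 12 matched, 8 tested) summed to 98.3 to 144 CPM in *ztf-11* KD and 74.1 to 138 CPM in control libraries, with 7 of 8 above a log2 fold change of 0. Intestinal markers summed to 2196 to 4845 CPM in *ztf-11* KD and 1131 to 3038 CPM in control libraries, of which *act-5* and *asp-1* made up most, while 3 of 9 tested were above 0 and their median log2 fold change was -0.05. Epidermal markers summed to 1335 to 1894 CPM in *ztf-11* KD and 1212 to 1926 CPM in control libraries, with 3 of 7 tested above 0. Of the 10 early maternal markers tested, 1 was above 0. The part of these shifts in the channel values was not tested.

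**Figure D4:**
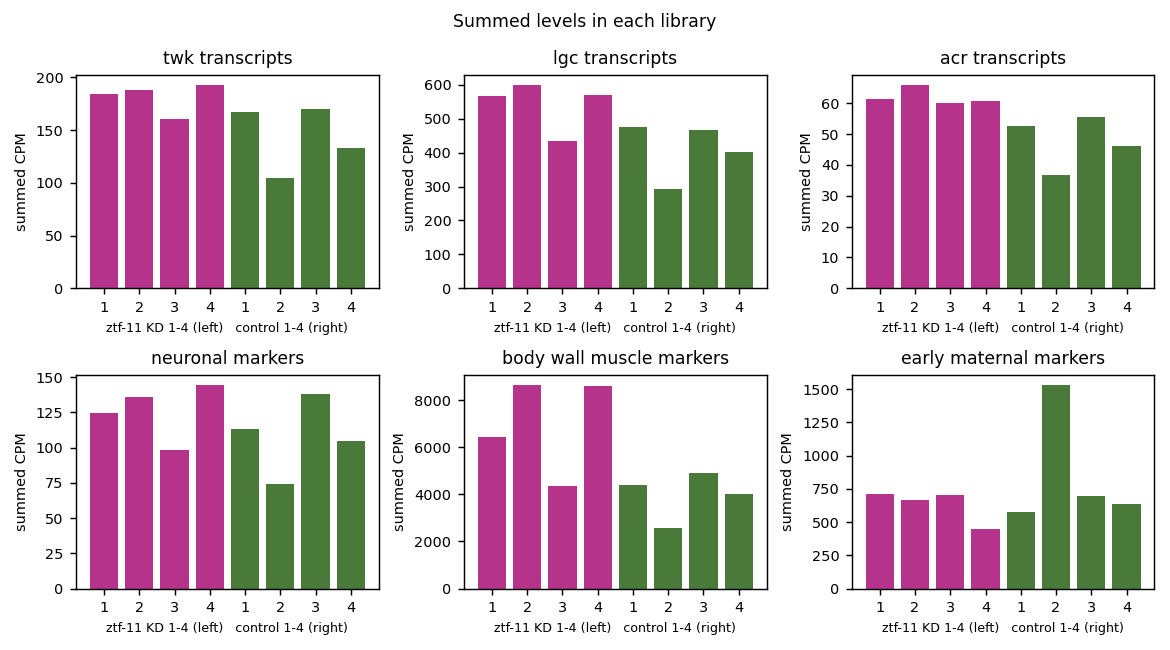
Summed CPM (vertical axes, from 0) of the *twk*, *lgc* and *acr* transcripts and of the neuronal, body wall muscle and early maternal marker lists in each library, with *ztf-11* KD replicates 1 to 4 left of control replicates 1 to 4. Control replicate 2 is lowest for the 3 channel families, the neuronal and the muscle markers, and highest, at 1530 CPM, for the early maternal markers.

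Libraries of 1 group also differed along a shared axis. The first principal component of the deviations from the group means held 54.4% of their variance, with control replicate 2 and *ztf-11* KD replicate 3 at one end and control replicate 3 and *ztf-11* KD replicate 4 at the other. Channel levels followed it more than most: 75 of 85 channel transcripts had a positive correlation with it over the 8 libraries, against 7483 of 14328 transcripts in all, a description of libraries that all transcripts share. Muscle markers (7 of 7) and neuronal markers (8 of 8) were positive as well, and early maternal markers (1 of 10) mostly negative.

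Of the *twk* potassium channels, *twk-33* (NM_001322605) differed most. It was measured at 2.45, 2.10, 2.07 and 3.12 CPM in *ztf-11* KD embryos, against 0.349, 0.166, 1.88 and 0.445 CPM in control embryos. All KD libraries were above all controls, of which replicate 3 was far above the other 3. The log2 fold change was 1.77 (SE 0.67, edgeR adjusted p = 0.383), 2.90 without that control and 1.44 without control replicate 2.

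*twk-12* (NM_073330) was measured at 3.39, 3.65, 2.27 and 5.78 CPM in *ztf-11* KD, against 2.62, 1.16, 1.57 and 0.840 CPM in control embryos. The groups overlapped only between KD replicate 3 and control replicate 1, and the log2 fold change was 1.28 (SE 0.43, edgeR adjusted p = 0.383), or 1.15 without control replicate 2. *twk-7* (NM_066502), whose loss makes worms hyperactive, was measured at 19.04, 22.2, 16.4 and 21.1 CPM in *ztf-11* KD, against 14.2, 7.83, 16.2 and 8.50 CPM in control embryos. The KD libraries were all higher, but KD replicate 3 exceeded control replicate 3 by very little (log2 fold change 0.75, SE 0.26, edgeR adjusted p = 0.383, and 0.59 without control replicate 2).

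*twk-2* (NM_062385) was the most abundant of the 32 *twk* transcripts tested, though below *twk-18*, which is given apart. *twk-2* was measured at 50.3, 57.6, 43.0 and 56.6 CPM in *ztf-11* KD, against 40.8, 25.5, 50.4 and 30.4 CPM in control embryos. Control replicate 3 reached into the KD range, and the log2 fold change was 0.50 (SE 0.22, edgeR adjusted p = 0.387), or 0.34 without control replicate 2. *twk-11* (NM_072382) was measured at 29.3, 26.7, 27.1 and 27.9 CPM in *ztf-11* KD, against 34.1, 20.96, 26.7 and 28.4 CPM in control embryos. Here the KD libraries lay within the control range (log2 fold change 0.01, SE 0.17), and the sign turned with DESeq2, with other scalings and without control replicate 2 (-0.12).

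*twk-47* (NM_001322673) ran the other way. It was measured at 1.20, 1.84, 0.475 and 1.93 CPM in *ztf-11* KD, against 2.12, 2.99, 2.41 and 2.84 CPM in control embryos, so that every KD library was below every control. The log2 fold change was -0.93 (SE 0.44, edgeR adjusted p = 0.400), and -0.87 without control replicate 2. Its exons overlap those of *obr-4* on the opposite strand. Another 4 *twk* transcripts were below 0, *twk-26* (-0.52), *twk-32* (-0.30), *twk-45* (-0.24) and *twk-13* (-0.16 for NM_073690).

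Transcripts of 1 gene did not always share a value. The 3 tested transcripts of *twk-13* had log2 fold changes of 0.01 (NM_001129512), 0.52 (NM_001276939) and -0.16 (NM_073690), with SEs of 0.30, 0.64 and 0.63. Both *twk-46* transcripts were above 0, at 0.97 (SE 0.50) and 0.44 (SE 0.70). At these errors neither gene's transcripts could be told apart.

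*twk-18*, a potassium channel of body wall muscle whose gain-of-function alleles paralyse worms, was paired with a transcript (NM_077115) only by the study's own gene list. It was added for that reason, after its values were known, and is not among the 85. It was measured at 95.7, 102, 78.3 and 85.0 CPM in *ztf-11* KD, against 77.6, 58.4, 64.9 and 72.0 CPM in control embryos. The KD libraries were all above the controls (log2 fold change 0.40, SE 0.14, edgeR adjusted p = 0.383, exact two-sided permutation p = 0.029), and the log2 fold change was 0.32 without control replicate 2.

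Of the *lgc* receptors, *lgc-21* (NM_077940) had the smallest p of all channels. It was measured at 100.2, 109, 63.5 and 92.3 CPM in *ztf-11* KD, against 44.5, 21.5, 61.6 and 30.2 CPM in control embryos. All KD libraries were above all controls, although KD replicate 3 and control replicate 3 were close. The log2 fold change was 1.21 (SE 0.31, edgeR adjusted p = 0.359), and 1.00 without control replicate 2.

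*lgc-34* (NM_061351), the most abundant channel, was measured at 141, 145, 98.5 and 138 CPM in *ztf-11* KD, against 115, 63.2, 105 and 92.0 CPM in control embryos. KD replicate 3 lay among the controls, and the log2 fold change was 0.47 (SE 0.20, edgeR adjusted p = 0.387), or 0.31 without control replicate 2. *lgc-39* (NM_072420) was measured at 36.5, 40.8, 38.3 and 37.8 CPM in *ztf-11* KD, against 44.4, 26.7, 37.6 and 41.2 CPM in control embryos. The KD values lay inside the control range (log2 fold change 0.03, SE 0.17), and the log2 fold change was -0.12 without control replicate 2.

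*lgc-30* (NM_067614) was measured at 7.50, 11.7, 3.12 and 9.25 CPM in *ztf-11* KD, against 4.83, 2.18, 5.30 and 3.24 CPM in control embryos, with a log2 fold change of 1.02 (SE 0.42, edgeR adjusted p = 0.387). *lgc-37* (NM_067261), of the GABA receptor type, was measured at 2.30, 5.11, 1.02 and 3.61 CPM in *ztf-11* KD, against 1.09, 1.09, 2.28 and 0.593 CPM in control embryos, with a log2 fold change of 1.25 (SE 0.55, edgeR adjusted p = 0.387). In both genes KD replicate 3 lay inside the control range and the other 3 KD libraries were above every control. Without control replicate 2 the log2 fold changes were 0.81 for *lgc-30* and 1.18 for *lgc-37*.

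The largest log2 fold changes of the *lgc* family belonged to rare transcripts. *lgc-54* (NM_001356670) was measured at 0.868, 0.825, 0.825 and 1.97 CPM in *ztf-11* KD, against 0.480, 0.166, 0.487 and 0.173 CPM in control embryos (log2 fold change 1.77, SE 0.60, edgeR adjusted p = 0.383). The groups did not overlap, and KD replicate 4 was far above the other KD libraries; without control replicate 2 the log2 fold change was 1.54. The filter's level was reached by all 4 KD libraries and by 2 controls. The exons of *lgc-54* overlap *T15B7.1* and *hpo-8* on the opposite strand.

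*lgc-8* (NM_001028362) had 30, 12, 24 and 14 counts in *ztf-11* KD and 12, 6, 6 and 4 in control libraries, which did not overlap once scaled to CPM (log2 fold change 1.60, SE 0.65, edgeR adjusted p = 0.387). *lgc-5* (NM_069010) had 18, 36, 12 and 13 counts in *ztf-11* KD and 1, 3, 2 and 12 in control libraries (log2 fold change 2.12, SE 0.87, edgeR adjusted p = 0.387). Both passed the filter through the KD group: all 4 KD libraries and 1 control reached its level, so some difference was built into their being tested. Without control replicate 2 the log2 fold changes were 1.53 for *lgc-8* and 1.95 for *lgc-5*, and with 1 library left out *lgc-5* ran from 1.67 (without KD replicate 2) to 3.30 (without control replicate 4). *lgc-6*, the neighbour of *lgc-5*, had a log2 fold change of 0.12 (SE 0.41).

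A few receptors whose ligand is well known are given as examples, picked after their values were seen. The serotonin-gated *lgc-50* had a log2 fold change of 0.67 (SE 0.38), the acetylcholine-gated anion channel *lgc-46* 0.63 (SE 0.40), the GABA-gated cation channel *lgc-35* 0.43 (SE 0.43), the tyramine-gated *lgc-55* 0.26 (SE 0.22) and the dopamine-gated *lgc-53* -0.25 (SE 0.37). Without control replicate 2 these were 0.45, 0.41, 0.30, 0.05 and -0.49 in the same order. The other *lgc* transcripts below 0 were *lgc-12* (-0.22), *lgc-20* (-0.19) and *lgc-32* (-0.18).

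Of the nicotinic subunits, the 3 with an unadjusted p under 0.05 all belong to the ACR-16 group, the worm relatives of the vertebrate alpha7 receptor. That group holds 8 of the 13 *acr* transcripts tested. *acr-11* (NM_059505) was measured at 9.59, 8.15, 7.07 and 4.87 CPM in *ztf-11* KD, against 4.30, 1.75, 4.32 and 3.24 CPM in control embryos. The groups did not overlap, and the log2 fold change was 1.12 (SE 0.34, edgeR adjusted p = 0.371), or 0.89 without control replicate 2.

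*acr-10* (NM_076291) was measured at 2.68, 2.10, 1.57 and 2.35 CPM in *ztf-11* KD, against 1.18, 1.16, 1.11 and 0.247 CPM in control embryos. The groups did not overlap, control replicate 4 was far below the other controls, and the log2 fold change was 1.23 (SE 0.49, edgeR adjusted p = 0.383), or 1.35 without control replicate 2. *acr-25* (NM_001028399) was measured at 11.02, 12.1, 10.4 and 9.85 CPM in *ztf-11* KD, against 8.32, 6.50, 8.44 and 7.51 CPM in control embryos. Its groups did not overlap either, at a smaller log2 fold change of 0.49 (SE 0.19, edgeR adjusted p = 0.383), or 0.41 without control replicate 2.

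*acr-16* (NM_072806), the subunit of the levamisole-insensitive receptor of body wall muscle, had overlapping groups. It was measured at 11.4, 7.54, 10.5 and 8.52 CPM in *ztf-11* KD, against 10.1, 9.70, 9.64 and 9.86 CPM in control embryos. The KD libraries lay on both sides of the controls (log2 fold change -0.05, SE 0.20), and the value was 0.04 without KD replicate 2 and -0.07 without control replicate 2. Its exons overlap *F25G6.8* on the opposite strand. *acr-15* (NM_072805) was measured at 7.76, 10.7, 10.1 and 10.2 CPM in *ztf-11* KD, against 7.38, 6.28, 8.53 and 8.28 CPM in control embryos, where only KD replicate 1 lay among the controls (log2 fold change 0.35, SE 0.20, edgeR adjusted p = 0.441, and 0.25 without control replicate 2).

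Values of the remaining *acr* groups were within about 1 SE of 0. *acr-2* (0.22, SE 0.40) and *acr-3* (0.27, SE 0.45), neighbouring genes for subunits of a receptor of cholinergic motor neurons, had close log2 fold changes, and *acr-12*, of the same receptor, was at -0.14 (SE 0.30). *acr-6*, of the UNC-38 group, had 0.77 (SE 0.72) and *acr-18*, of the DEG-3 group, 0.51 (SE 0.59). Within the ACR-16 group 7 of 8 tested transcripts were above 0, with a median of 0.35, against 0.35 for the whole family.

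**Figure D5:**
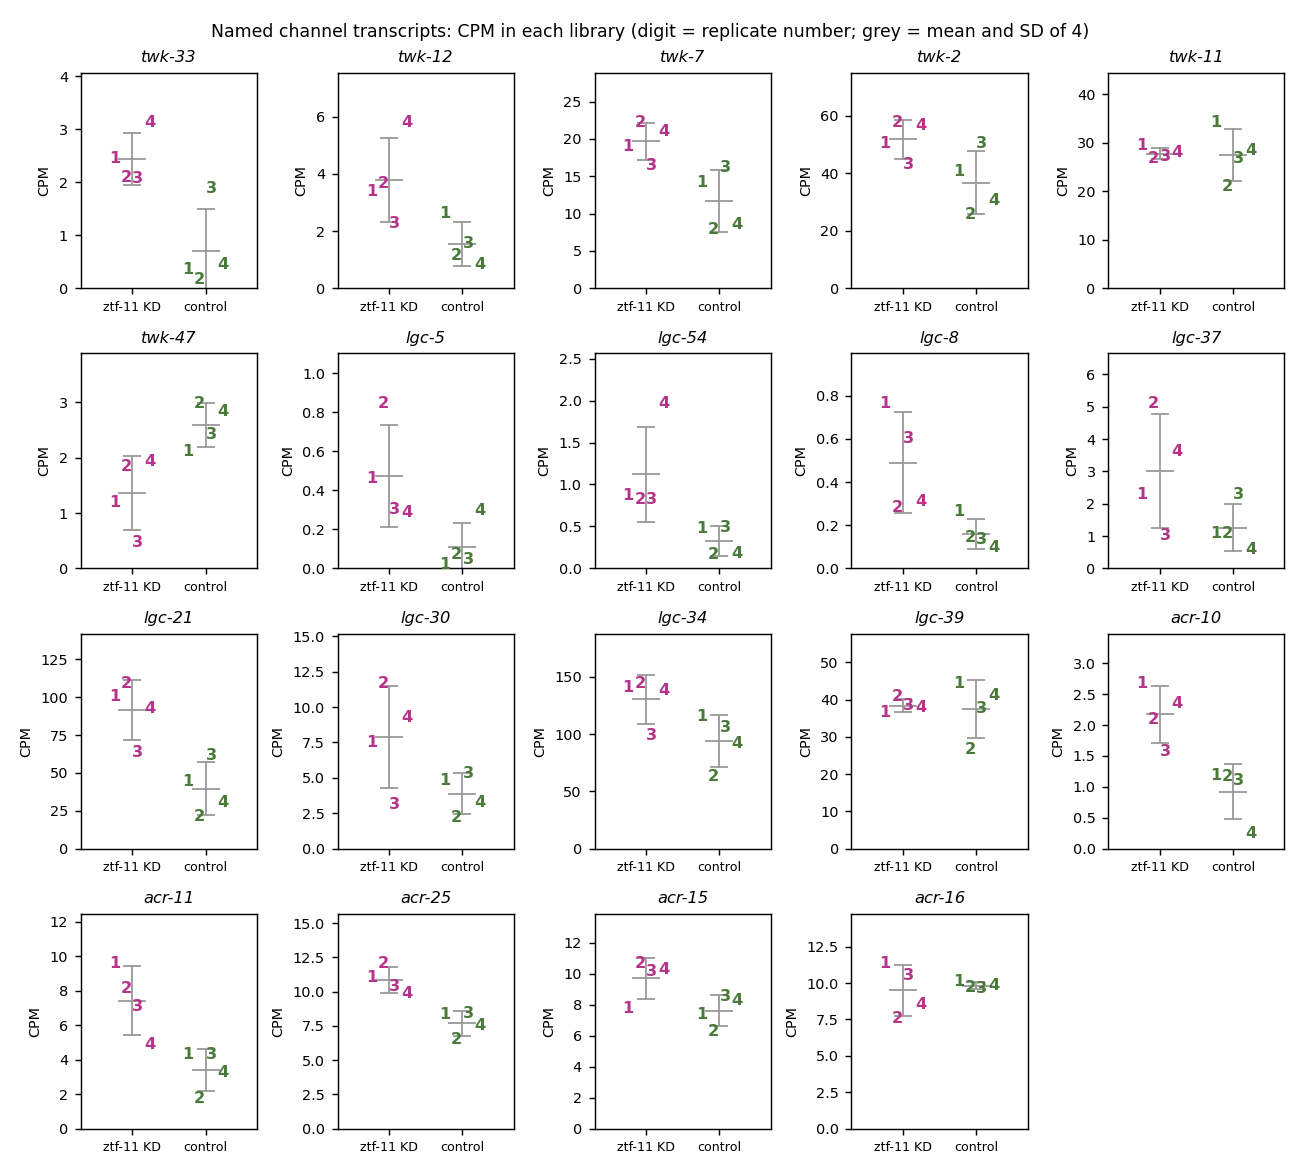
CPM (vertical axes, each from 0) of the 19 named channel transcripts in the 4 *ztf-11* KD libraries (left in each panel) and 4 control libraries (right). Digits mark replicate numbers at their values and grey bars the mean and SD of 4; KD digits lie above all control digits in 8 panels and below them in 1 (*twk-47*).

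Other genes of the same pathways were taken from lists, 1 transcript a gene, and their counts above 0 stand beside 49.2% over all transcripts tested. Of all transcripts tested, 8.8% were higher at an unadjusted edgeR p under 0.05. All KD libraries lay above all controls for 3.61%. Of 29 other potassium channel genes (voltage-gated, calcium-activated, inward rectifying and further tandem pore types) 13 were tested, 10 were above 0 and 0 had an unadjusted edgeR p under 0.05, with a median log2 fold change of 0.34. Of 8 other nicotinic subunit genes 5 were tested and all 5 were above 0, with a median of 0.17. The muscle and neuronal subunits *unc-29* (0.04), *unc-38* (0.17), *unc-63* (0.24) and *lev-8* (0.02) lay close to 0. *eat-2*, which acts in pharyngeal muscle, had a mean of 18.2 ± 5.9 CPM in *ztf-11* KD, against 7.58 ± 3.28 CPM in controls (SD, n = 4 each). Its groups overlapped, and its log2 fold change was 1.26 (SE 0.35, edgeR adjusted p = 0.359), or 1.07 without control replicate 2.

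Of 20 other Cys-loop receptor genes 12 were tested and 11 were above 0, with a median of 0.41. *avr-15*, a subunit of a glutamate-gated chloride channel that is a target of ivermectin, had a mean of 5.66 ± 0.79 CPM in *ztf-11* KD, against 2.48 ± 0.54 CPM in controls (SD, n = 4 each), and the groups did not overlap (log2 fold change 1.19, SE 0.26, edgeR adjusted p = 0.359). With 1 library left out, *avr-15* was at 1.07 or more. *pbo-6*, of the proton-gated channel of posterior body muscle, had a log2 fold change of 0.81 (SE 0.28), or 0.64 without control replicate 2, and did not overlap. The GABA receptor subunit *gab-1* had 1.24 (SE 0.51), was at 0.98 or more with 1 library left out, and did overlap. Both *pbo-6* and *gab-1* had an unadjusted edgeR p under 0.05, and an adjusted p of 0.383 and 0.387.

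Of 15 genes for receptor assembly and accessory subunits 10 were tested and 6 were above 0, with a median of 0.16. *sup-10*, which encodes a subunit of the SUP-9 potassium channel complex of muscle, had a mean of 12.1 ± 2.9 CPM in *ztf-11* KD, against 5.17 ± 2.14 CPM in controls (SD, n = 4 each), and did not overlap (log2 fold change 1.23, SE 0.33, edgeR adjusted p = 0.359, and 1.03 without control replicate 2). *molo-1*, an auxiliary subunit of levamisole-sensitive nicotinic receptors, had overlapping groups. Its log2 fold change was 0.76 (SE 0.31, edgeR adjusted p = 0.385), or 0.55 without control replicate 2. DESeq2 called *eat-2*, *avr-15* and *sup-10* higher, at an adjusted p of 0.0365, 0.00537 and 0.0299. Of all its transcripts 2.45% were called higher at an adjusted p under 0.1.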

How the data were processed

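Stranded, paired-end mRNA libraries were made from 8 independent embryo cultures. The authors trimmed adaptors, used TopHat2 to map reads to *ce10*, and deposited raw counts per RefSeq transcript from featureCounts; versions, strand setting and the rule for shared reads are not given in the sources used here. Names came from a RefSeq table of WBcel235 (45715 of 50606 transcripts). Exon overlaps, strands and transcript lengths came from an Ensembl annotation of WBcel235, and neighbouring genes from start positions in the RefSeq table.

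Counts were filtered with filterByExpr (minimum count 10), scaled by TMM and tested with edgeR 4.0.16 (glmQLFit, robust, and glmQLFTest) in R 4.3.3 on all transcripts, with condition as the only term, Benjamini-Hochberg adjustment and a threshold of 0.1. The script was tested on simulated data. Standard errors are log2 fold change over the square root of F. Named channels had an unadjusted p under 0.05, groups that did not overlap, or 1 of the 3 highest mean CPM of a family. Members, lists and this rule were chosen with earlier results of these data known. DESeq2 1.42.0, other scalings and filters, counts summed per gene, a replicate block and leaving out each library were alternatives.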

Additional observations from a re-analysis of the deposited data

Results flagged for a closer look

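In 4 of 48 groups of 4 libraries 1 library lay far from the other 3. The limit used passes about 1 in 20 groups of independent, normally distributed values. These 48 groups come from the same 8 libraries, and many of the transcripts were named for their p or separation. That rate therefore does not apply to them. *twk-33* had 1.88 CPM in control replicate 3, where the other 3 controls had 0.166 to 0.445 CPM. *lgc-54* had 1.97 CPM in *ztf-11* KD replicate 4, against 0.825 to 0.868 CPM in the other KD libraries. *lgc-34* had 98.5 CPM in *ztf-11* KD replicate 3, against 138 to 145 CPM in the others. *acr-10* had 0.247 CPM in control replicate 4, where the other 3 controls had 1.11 to 1.18 CPM.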

How the results depend on the processing

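No channel passed an adjusted p of 0.1 under any edgeR setting or with any library left out; DESeq2 called 2 channels, and 444 transcripts in all. Over all transcripts, edgeR called 6 without the filter and 0 to 3 with 1 library left out, 3 of them without control replicate 2 and 2 without control replicate 3. At an unadjusted p under 0.05 in either direction, leaving out 1 library gave 2 to 6 *twk*, 2 to 10 *lgc* and 1 to 3 *acr* transcripts. The share of all transcripts higher at that p ran from 4.41% to 13.4%. That share leaves out lower transcripts, so these counts cannot be set against it. With all libraries, 12.8% of all transcripts were under that p in either direction and 8.8% were higher. At least 10 counts in every library left 4 *lgc* transcripts. Replicate numbers did not pair the samples (correlations of same-numbered deviations from -0.64 to 0.01). A replicate block gave 2 *lgc* and 1 *acr* transcripts in either direction, and 3.80% of all transcripts counting only higher ones. The family medians stayed above 0 throughout, at 0.33 to 0.56 for *twk*, 0.19 to 0.48 for *lgc* and 0.26 to 0.52 for *acr* with 1 library left out.

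Values near 0 changed sign. *twk-11* was -0.0085 with DESeq2, -0.0077 with its size factors in edgeR, -0.0081 with library totals, -0.0058 with counts summed per gene, and -0.12 to 0.13 with 1 library left out. *lgc-39* ran from -0.12 to 0.13 and *acr-16* from -0.15 to 0.044 with 1 library left out. The cause was not tested. Depth limits the rare channels: *lgc-5* rests on 1 to 12 counts in each control.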
